A study of Mus musculus with 8 samples.

Results

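Expression of the urea cycle genes was examined in the pancreas of Sel1L knockout mice. Sel1L is the partner of the Hrd1 ubiquitin ligase that clears misfolded proteins from the endoplasmic reticulum. The set held 9 genes: Cps1, Nags, Otc, Ass1, Asl, Arg1 and Arg2 of the cycle itself, and Glud1 and Glul, which release and capture ammonia beside it. The set was picked from the large rise of Cps1 in these same arrays, and the other 8 genes were added by their function, so the Cps1 difference is described without a test. Of the 9 genes, 7 had an array feature assigned to them alone, among 18820 genes tested. Ass1 and Arg2 were read only by features that carry a second gene symbol, so no value could be given to either gene.

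The 8 arrays comprised 4 of Sel1L knockout pancreas and 4 of pancreas labelled wild type, all on the C57BL/6J background. Knockout mice were Sel1L flox/flox with exon 6 floxed and carried ERCre, in which an actin promoter drives Cre recombinase joined to an estrogen receptor, so that tamoxifen turns it on. The wild type group was made up of littermates that were also flox/flox but lacked ERCre. Both groups were injected with tamoxifen (5 mg/ml in sunflower oil, 5 μl per g body weight) on 3 consecutive days at 8 to 20 weeks of age. Because ERCre is not limited to pancreas and the littermates lacked it, loss of Sel1L in pancreas, its loss elsewhere and Cre activity cannot be told apart. The labels do not say that each array is a separate animal, so the p-values measure the spread between these arrays, which may be technical.

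Sel1l itself measured 11.68, 11.66, 11.70 and 11.45 in the knockout arrays, against 12.37, 12.38, 12.38 and 12.39 in the wild type arrays, on the log2 scale of the deposited values (limma difference -0.76, SE 0.0788, adjusted p = 0.000196). The feature was 1.69-fold lower and still bright, and it does not show how complete the loss of Sel1L was. Array correlations across genes ranged from 0.992 to 0.995 among knockout arrays and from 0.979 to 0.992 among wild type arrays. Wild type replicate 2 stood apart: the mean of 14 macrophage markers was 5.66 there and 7.13 to 7.63 in the remaining wild type arrays, beside 6.66 to 7.76 in the knockout arrays. The mean of 10 stellate cell and fibroblast markers was 7.06 in that array and 8.24 to 8.61 in the remaining wild type arrays.

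The urea cycle turns ammonia, which is toxic, into urea for excretion. Cps1 joins ammonia and bicarbonate into carbamoyl phosphate in the mitochondrial matrix, and Nags makes the N-acetylglutamate without which Cps1 is inactive. Otc then forms citrulline, Ass1 and Asl convert citrulline into arginine in the cytosol, and an arginase releases urea and returns ornithine to the mitochondrion. The whole cycle runs in hepatocytes, while Cps1 and Otc are also made in the epithelium of the small intestine. Exocrine pancreas is not known for a complete urea cycle.

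Cps1 was high in every knockout array and low in every wild type array. Its values were 9.40, 9.70, 9.73 and 9.67 in the knockout arrays, against 3.98, 4.96, 4.55 and 3.70 in the wild type arrays. The knockout mean was 9.63 ± 0.152 and the wild type mean 4.30 ± 0.565 (SD, n = 4 each), a log2 difference of 5.33 (SE 0.24) or 40.2-fold. Only 1 of the 18820 genes had a larger positive difference. The wild type values lay below the median gene of their arrays (5.35 to 5.50), and no detection calls were used here, so the size of the fold is rough. The groups were far apart on this feature, and the lowest knockout value exceeded the highest wild type value. Leaving out each array in turn gave differences between 5.13 and 5.55.

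**Figure D1:**
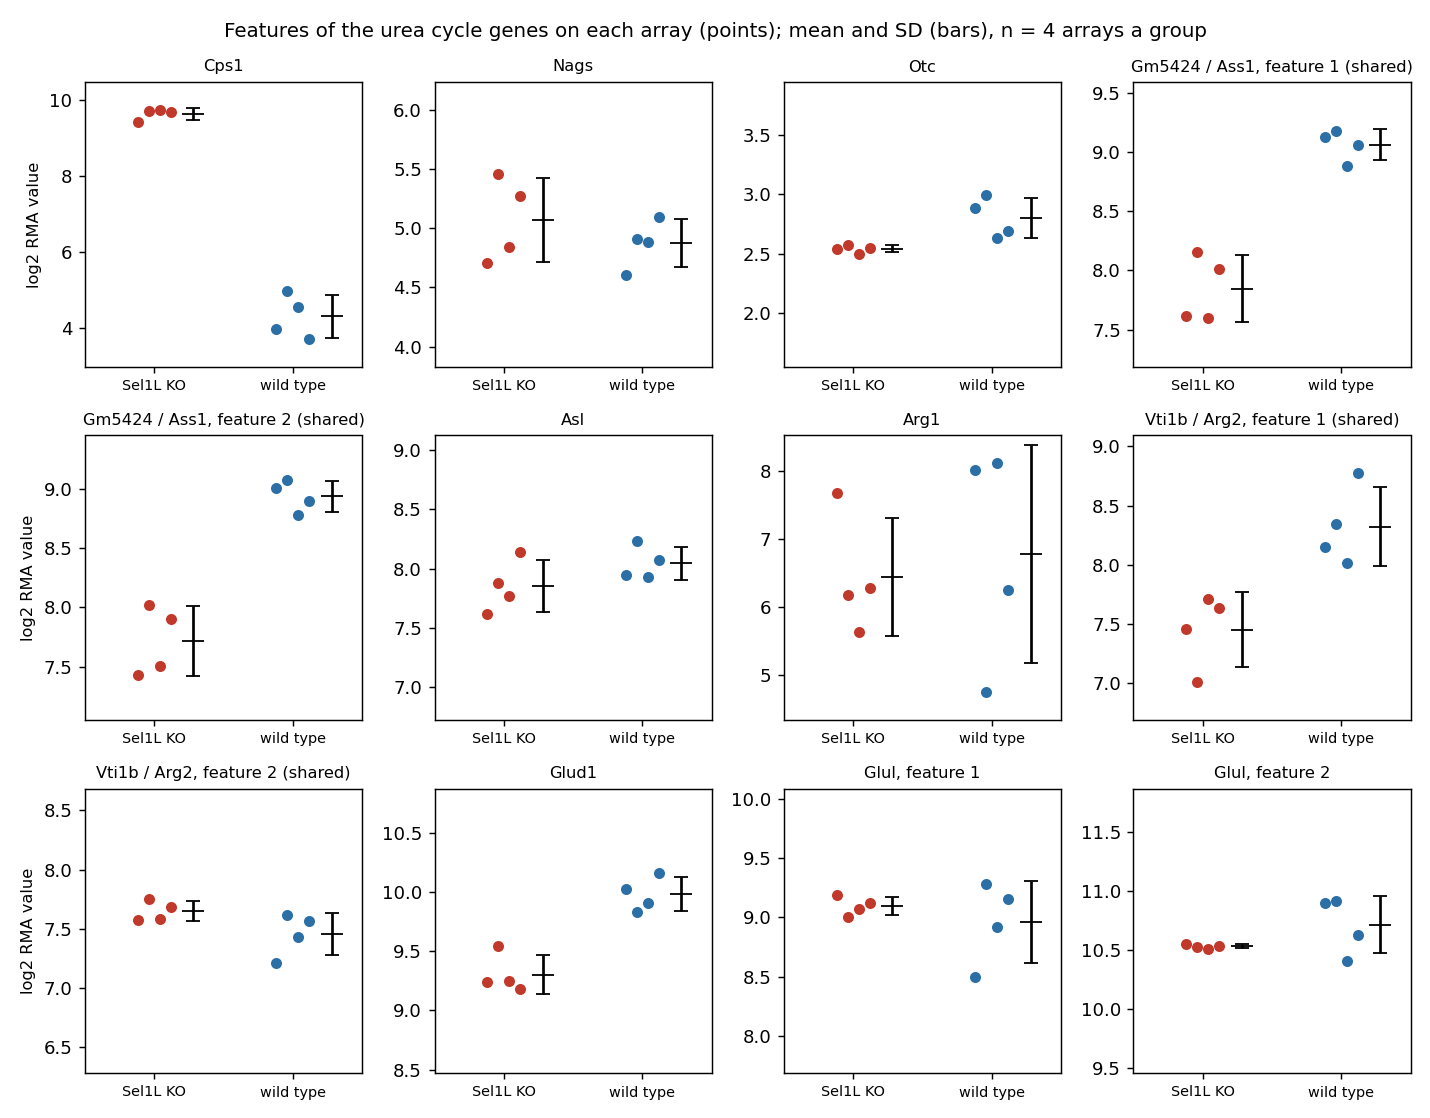
Log2 RMA values (vertical axes, scaled separately) of the 12 features that name a urea cycle gene, with a point for each of the 4 Sel1L knockout arrays (red, left) and 4 wild type arrays (blue, right) and bars for mean and SD. Cps1 separates at 9.63 against 4.30, Glud1 is lower at 9.30 against 9.98, and the knockout and wild type points of Nags, Asl, Arg1 and both Glul features overlap; features marked shared carry a second gene symbol.

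None of the other mitochondrial members of the cycle with a feature of its own rose with Cps1. Among the 6 members tested, 0 rose, 1 fell (Glud1) and 5 did not pass a limma adjusted p of 0.05; at an unadjusted p under that level, 0 were higher and 2 lower. Over all genes 28.7% passed, 16.1% higher and 12.6% lower in the knockout arrays. The median difference of the 6 members was -0.22, against -0.04 over all genes. Knockout and wild type values were fully separate for 2 of the 6 (Otc and Glud1), as they were for 32.2% of all genes.

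Nags, the source of the Cps1 activator, measured 4.70, 5.46, 4.84 and 5.28 in the knockout arrays, against 4.60, 4.91, 4.88 and 5.09 in the wild type arrays. The ranges overlapped and the difference was 0.20 (SE 0.174, limma adjusted p = 0.406). Otc, the enzyme that consumes carbamoyl phosphate, measured 2.54, 2.57, 2.50 and 2.55 in the knockout arrays, against 2.89, 2.99, 2.63 and 2.69 in the wild type arrays. All 4 knockout values of Otc lay below all 4 wild type values, but the difference of -0.26 did not pass the threshold (SE 0.0936, limma adjusted p = 0.0653). Dim genes as a whole leaned the same way. Among the 2500 genes with a mean under 3 on this scale the median difference was -0.16. Of these dim genes 301 were called lower and 4 higher. The share called lower was slightly below that over all genes (12.6%), while 16.1% of all genes were called higher. By calls, the dim genes thus stood out by their few rises and not by more falls. Their median difference, however, lay below that over all genes (-0.04). After quantile normalization the Otc difference was -0.09 (adjusted p = 0.484), and after centring each array on its median it was -0.36 and passed (adjusted p = 0.0381). It passed without wild type replicate 3 as well (-0.31, adjusted p = 0.0362).

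The features that cover the cytosolic steps gave no rise either. Asl, which splits argininosuccinate into arginine and fumarate, measured 7.62, 7.88, 7.77 and 8.14 in the knockout arrays, against 7.95, 8.23, 7.93 and 8.07 in the wild type arrays. The groups overlapped (difference -0.19, SE 0.121, limma adjusted p = 0.251). For Ass1, 2 features exist and both are assigned to Ass1 and to Gm5424 together. The first of these shared features measured 7.61, 8.16, 7.60 and 8.01 in the knockout arrays, against 9.13, 9.18, 8.88 and 9.06 in the wild type arrays. The other measured 7.43 to 8.02 in the knockout arrays, against 8.78 to 9.08 in the wild type arrays. On both, every knockout value lay below every wild type value, with differences of -1.22 and -1.23 that were not tested. Which gene gave the signal cannot be told from these features.

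Arginase genes did not separate the groups clearly. Arg1, the cytosolic arginase of liver that is also made by some activated macrophages, measured 7.66, 6.18, 5.64 and 6.28 in the knockout arrays, against 8.01, 4.75, 8.11 and 6.25 in the wild type arrays. Its spread within a group was wider than that of any other tested member, with SDs of 0.864 among knockout arrays and 1.60 among wild type arrays. The difference was -0.34 (SE 0.72, limma adjusted p = 0.739), and it was -1.02 without wild type replicate 2 (adjusted p = 0.184). Arg2, the mitochondrial arginase, shares both of its features with Vti1b, a SNARE gene of vesicle fusion. These shared features went opposite ways: the first averaged 7.45 in the knockout arrays and 8.32 in the wild type arrays (difference -0.87, groups not overlapping), and the other averaged 7.65 in the knockout arrays and 7.46 in the wild type arrays (difference 0.19, groups overlapping). Neither shared feature was tested.

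Arg1 was high on the arrays on which macrophage markers were high. Over the 8 arrays Arg1 and the mean of the 14 macrophage markers had a Pearson r of 0.875 (exact permutation p = 0.00246, adjusted p = 0.0172 over the 7 members examined) and a Spearman rho of 0.833 (exact permutation p = 0.0154, adjusted p = 0.108). Without the pair of arrays farthest from the median marker level, wild type replicate 2 and knockout replicate 1, r was 0.826. After subtracting each group's mean from its arrays r was 0.913. Each group holds 4 arrays, too few for a correlation of its own. None of the other 6 members passed this adjustment, with adjusted p-values of 0.283 or more for r. Macrophage markers themselves had 0 of 14 called by limma between the groups, where 28.7% of all genes were called. At an unadjusted p under 0.05 the count was also 0, and 2 were called lower without wild type replicate 2. Some of these markers spread widely among the wild type arrays (SD 2.01 for Lyz2), so the lack of calls does not show equal levels. The stellate cell and fibroblast mean was also lowest on wild type replicate 2 (7.06). Within the groups, that mean and Arg1 were both highest on knockout replicate 1 (8.56 and 7.66) and on wild type replicate 3 (8.61 and 8.11). The relation is therefore not shown to be particular to macrophages, and that of Arg1 with other cell type lists was not tested. In bulk tissue, fewer cells of a type and less RNA per cell cannot be told apart.

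**Figure D2:**
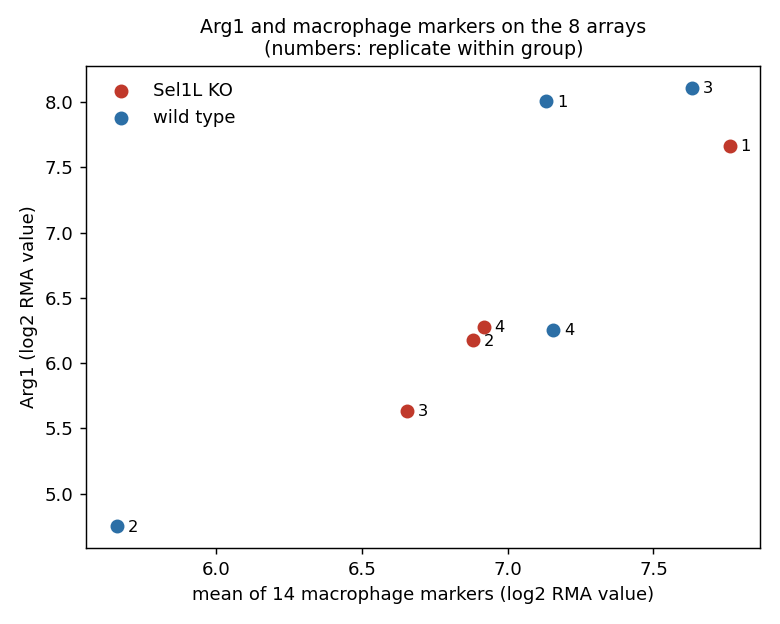
Arg1 (vertical axis, log2 RMA value) against the mean of 14 macrophage markers (horizontal axis, log2 RMA value) on the 4 Sel1L knockout arrays (red) and the 4 wild type arrays (blue), each point with its replicate number. Wild type replicate 2 is lowest on both axes, at 5.66 and 4.75, and the groups are intermixed along the trend.

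The enzymes that exchange ammonia with glutamate were lower or were not called. Glud1, the mitochondrial glutamate dehydrogenase that releases ammonia from glutamate, measured 9.24, 9.54, 9.24 and 9.18 in the knockout arrays, against 10.02, 9.83, 9.91 and 10.16 in the wild type arrays. Every knockout value lay below every wild type value, and the difference of -0.68 passed (SE 0.107, 1.60-fold, limma adjusted p = 0.0018). Glud1 stayed called under all 17 other settings, with adjusted p-values of 0.000308 to 0.0115. Glul, the glutamine synthetase that binds ammonia to glutamate, measured 10.55, 10.53, 10.51 and 10.54 in the knockout arrays, against 10.89, 10.92, 10.41 and 10.63 in the wild type arrays. The difference was -0.18 (SE 0.115, limma adjusted p = 0.256), and a second Glul feature differed by 0.14. The groups overlapped on both features, and the knockout arrays agreed more closely with each other (SD 0.0177) than the wild type arrays did (SD 0.24).

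The RefSeq table of promoter windows (GRCm38.p6, 250 bases before to 50 after each start) held 5 of the 9 genes, namely Nags, Otc, Ass1, Glud1 and Glul. The windows of Glud1, the tested member that fell, and of Otc, the member next to Cps1 in the cycle, are shown because their base composition lies on opposite sides of the median window (52.7% G or C). Glud1 is at chr14:34310477-34310776 on the plus strand with 81.0% G or C, and Otc at chrX:10252055-10252354 on the plus strand with 44.3%.
Glud1: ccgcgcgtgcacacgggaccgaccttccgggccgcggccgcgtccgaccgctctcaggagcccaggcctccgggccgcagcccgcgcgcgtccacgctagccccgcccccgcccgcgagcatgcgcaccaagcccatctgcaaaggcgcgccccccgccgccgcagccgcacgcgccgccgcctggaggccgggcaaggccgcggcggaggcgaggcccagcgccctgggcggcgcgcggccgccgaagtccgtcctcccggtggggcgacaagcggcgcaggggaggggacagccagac
Otc: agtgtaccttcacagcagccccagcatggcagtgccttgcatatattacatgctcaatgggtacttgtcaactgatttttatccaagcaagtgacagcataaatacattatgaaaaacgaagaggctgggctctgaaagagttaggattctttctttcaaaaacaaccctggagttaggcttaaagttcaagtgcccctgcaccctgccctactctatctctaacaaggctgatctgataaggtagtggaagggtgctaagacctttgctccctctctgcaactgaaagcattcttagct
Both strands of all windows were searched for TTGCNNAA (C/EBP factors, in 10.8% of 32851 windows), TGATGNAA (the amino acid response element bound by ATF4, in 3.97%), CAAAGTCCA (HNF4, in 0.475%), the estrogen response element (in 0.07%), the glucocorticoid response element (in 0.475%) and the ER stress element (in 0.119%). Some of these patterns can overlap, and a match is only a run of letters. None of the 5 member windows held any of them.

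Around the urea cycle, genes went both ways. Of 102 measured genes in 6 lists of neighbouring metabolism and of liver transcription factors, 16 rose and 24 fell, where 16.1% and 12.6% of all genes did. Their median difference was -0.07. The count of rises fell to 9 after quantile normalization or median centring and to 10 after cyclic loess.

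Among carriers and partners of the cycle, 3 of 14 measured genes rose and 2 fell (list median -0.10). Lonp1, a protease of the mitochondrial matrix, measured 9.32, 9.33, 9.45 and 9.36 in the knockout arrays, against 7.33, 7.39, 7.30 and 7.31 in the wild type arrays. It rose by 2.03 (SE 0.0705, 4.09-fold, limma adjusted p = 6.99e-07), and within each group its values lay within a narrow range. Slc25a15, the carrier that brings ornithine into mitochondria for Otc, fell by 0.57 (SE 0.131, limma adjusted p = 0.0107). Car5b, a mitochondrial carbonic anhydrase that supplies bicarbonate, fell by 0.66 (SE 0.126, limma adjusted p = 0.0047). Slc25a13, a carrier that exports aspartate for the Ass1 step, rose by 0.45, and Sirt3, a mitochondrial deacetylase, by 0.40 (limma adjusted p = 0.00805 and 0.00588). Both of these calls were lost under the 3 other scalings, with adjusted p-values of 0.0526 to 0.0678 for Slc25a13 and of 0.0513 to 0.0858 for Sirt3. Sirt5, which removes acyl groups from Cps1 protein, differed by 0.14 and was not called.

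In ornithine, proline and polyamine metabolism, 2 of 14 rose and 6 fell (list median -0.10). Oat, which joins ornithine metabolism to that of glutamate and proline, measured 9.84, 9.77, 9.88 and 9.75 in the knockout arrays, against 8.71, 8.92, 9.12 and 9.08 in the wild type arrays, a rise of 0.85 (SE 0.101, limma adjusted p = 0.000408). Sat1, which acetylates polyamines for export, rose by 0.97 (SE 0.0935), and Smox, the spermine oxidase, fell by 0.58 (SE 0.0848). Prodh, which starts proline breakdown, fell by 1.05 (SE 0.159), and Prodh2, which starts that of hydroxyproline, by 0.51 (SE 0.0974). Prodh2 lay below the median gene, at 3.75 in the knockout arrays and 4.26 in the wild type arrays. The groups did not overlap for any of these 5 genes, nor did they for 32.2% of all genes. The 5 were named for their small p, so this adds no support to their calls.

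Of 12 genes listed for arginine use outside the cycle, some of which act on products of arginine, 3 rose and 3 fell (list median 0.19). Falls numbered 5 after median centring, and rises 5 with a trended, robust variance. Gatm and Gamt, the enzymes of creatine synthesis, fell by 1.12 (SE 0.0961) and 1.06 (SE 0.0807). Rars, the arginyl-tRNA synthetase, rose by 0.52 (SE 0.0892), and Prmt1, an arginine methyltransferase, by 0.50 (SE 0.101). Ate1, which adds arginine to proteins, rose by 0.33, a call that was lost under the 3 other scalings (limma adjusted p = 0.12 to 0.164).

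In glutamate, glutamine and ammonia metabolism, 5 of 23 rose and 5 fell (list median -0.02); rises numbered 2 or 3 under the 3 other scalings, and 2 or 3 without any 1 of 6 of the arrays (wild type replicates 1 and 3 and each knockout replicate). Gpt, the cytosolic alanine aminotransferase, lay between 8.17 and 8.48 in the knockout arrays, against 6.53 to 6.84 in the wild type arrays, a rise of 1.64 (SE 0.101, 3.12-fold, limma adjusted p = 1.08e-05). Got1, the cytosolic aspartate aminotransferase, rose by 1.07 (SE 0.156). Asns, the asparagine synthetase, fell by 0.44 (SE 0.0745), although it lay high in both groups, at 11.91 in the knockout arrays and 12.36 in the wild type arrays. The glutamine transporter genes Slc38a5 and Slc38a3 fell by 1.71 (SE 0.0795) and 0.61 (SE 0.0758). Cad, singled out after its value was seen because it holds the other carbamoyl phosphate synthetase of the cell, that of pyrimidine synthesis, rose by 0.39 (limma adjusted p = 0.0169); this call was lost under the 3 other scalings (0.0828 to 0.12) and without knockout replicate 2 (0.0514) or 3 (0.0504).

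Got1 and Asns, which went opposite ways, both carry the letters TGATGNAA in their promoter windows and are shown for that reason. The table held a window for 26 of the 30 genes named by rule from the 6 lists, and among those 26 no other window held this pattern. The C/EBP pattern TTGCNNAA was found in the windows of Prodh2, Slc38a5 and Aass, and the remaining patterns in none. The TGATGNAA matches, in capitals, are shown on the gene's own strand with the bases around them. That of Got1, at chr19:43524689-43524718 on the minus strand, reads on the opposite strand to the gene and starts 102 bases before the start of transcription. That of Asns, at chr6:7693214-7693243 on the minus strand, begins 23 bases before it.
Got1: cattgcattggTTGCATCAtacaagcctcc
Asns: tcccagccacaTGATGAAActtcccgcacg

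Enzymes by which liver breaks down amino acids did not rise with Cps1. Of 20 measured, 0 rose and 5 fell by limma (list median -0.18), and at an unadjusted p under 0.05 the counts were 0 and 7. Part of the list was dim, such as Tdo2 and Glyat with means under 3. Among the 2500 genes that dim, 4 were called higher and the median difference was -0.16. Cbs of homocysteine metabolism fell by 0.81 (SE 0.0767), Aass of lysine breakdown by 0.90 (SE 0.144) and Fah of tyrosine breakdown by 1.06 (SE 0.231). Ftcd and Uroc1, of histidine breakdown, fell by 0.43 (SE 0.107) and 0.45 (SE 0.136). Their calls were lost after quantile normalization (limma adjusted p = 0.0577 and 0.177), and that of Uroc1 also after cyclic loess (0.148) and without any 1 of 6 of the arrays (0.0504 to 0.0841). Falls in the list numbered 3 after quantile normalization, and 1 gene of the list was called higher without wild type replicate 2.

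Among transcription factors known from hepatocytes, 3 of 19 rose and 3 fell (list median -0.04). Prox1, a homeobox factor, rose by 1.00 (SE 0.179), and Cebpg, a partner of other C/EBP factors and of ATF4, by 0.94 (SE 0.0856). Nr3c1, the glucocorticoid receptor, fell by 0.41 (SE 0.0919), and Foxa1 by 0.56 (SE 0.132). Foxa1 lay below the median gene, at 3.72 in the knockout arrays and 4.29 in the wild type arrays. Nr0b2, a nuclear receptor that represses others, rose by 0.49 (limma adjusted p = 0.0332), a call lost under each of the 3 other scalings (0.0606 to 0.116) and without any 1 of 7 of the arrays (0.0504 to 0.0859). Falls numbered 5 or 6 under those scalings, against 3 on the deposited values, and 5 without wild type replicate 3. Cebpa and Hnf4a, singled out after their values were seen, differed by -0.29 and 0.29 and were not called; Cebpa was called lower under the 3 other scalings (limma adjusted p = 0.0194 to 0.0257), and Hnf4a higher without wild type replicate 4 (0.0385).

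**Figure D3:**
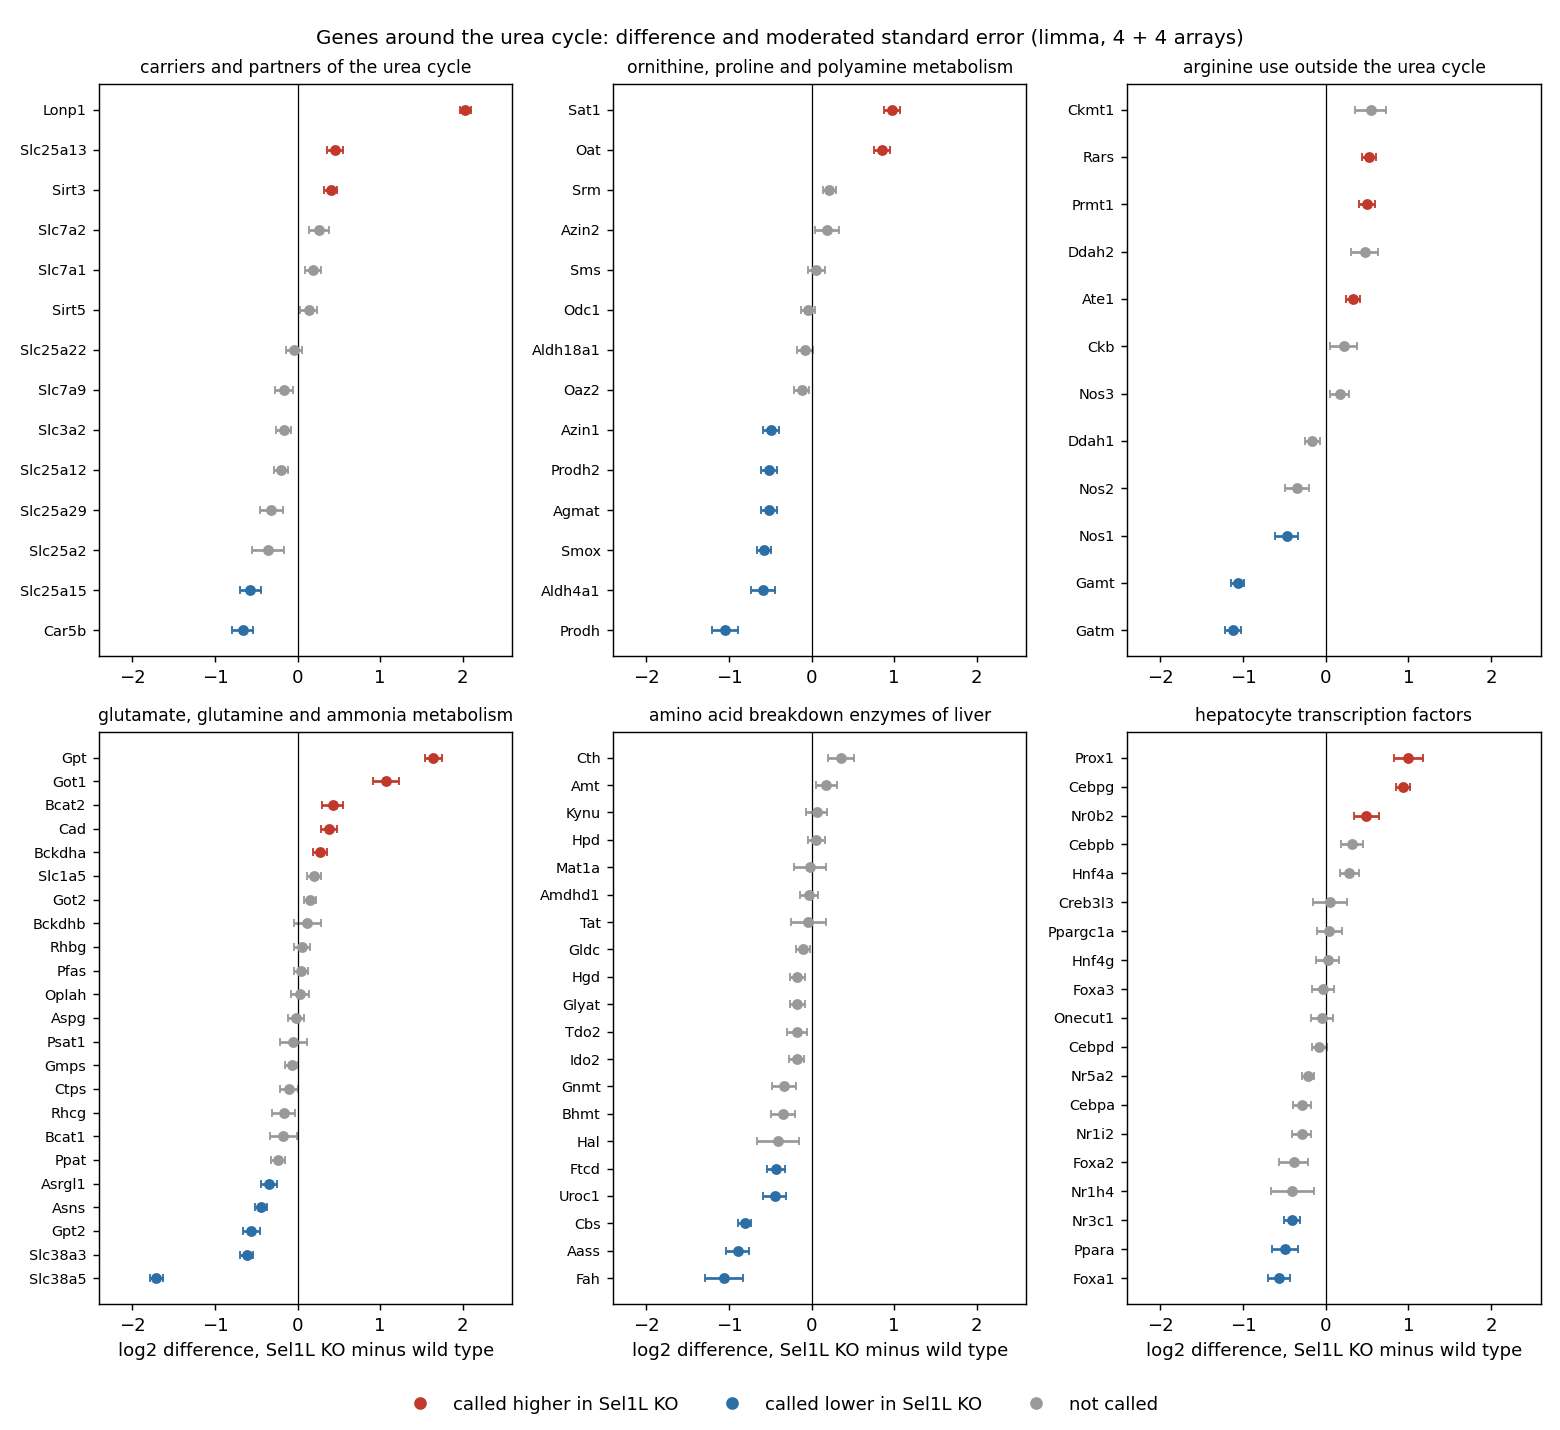
Log2 difference, Sel1L knockout minus wild type (horizontal axis), with its moderated standard error for each measured gene of the 6 lists around the urea cycle; red points were called higher, blue points lower and grey points not called, over 4 + 4 arrays. Lonp1 (2.03) and Gpt (1.64) lie farthest to the right and Slc38a5 (-1.71) farthest to the left.

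Markers of liver and gut, where Cps1 is normally made, were read on the same arrays. Of 27 hepatocyte markers measured, 4 were called higher and 5 lower, with a median difference of -0.20. Beside this and the marker counts below, 16.1% of all genes were called higher and 12.6% lower. The rises stayed at 4 under the 3 other scalings, while the falls numbered 1 after quantile normalization or cyclic loess and 8 after median centring; they numbered 2 or 3 without wild type replicate 1 or without knockout replicate 2, 3 or 4. The 4 were Fetub (5.48, SE 0.431) and Ahsg (4.38, SE 0.311), which encode plasma proteins of the fetuin family and were known to rise when the list was made, Ambp (0.86, SE 0.162) and F2 (0.78, SE 0.169). Alb, the gene of albumin, was 5.71, 5.17, 5.48 and 5.17 in the knockout arrays, against 5.70, 6.41, 5.87 and 6.62 in the wild type arrays (difference -0.77, SE 0.212, limma adjusted p = 0.0237; 0.0514 without wild type replicate 2, 0.0654 without knockout replicate 2 and 0.0662 without knockout replicate 4). The fibrinogen gene Fgb lay between 2.54 and 2.78 in the knockout arrays and between 2.54 and 2.86 in the wild type arrays, and Cyp2e1, a liver cytochrome that was called lower after median centring (limma adjusted p = 0.0442), between 3.09 and 3.20 in the knockout arrays and between 3.17 and 3.44 in the wild type arrays. The mean of the hepatocyte list was 4.45 to 4.60 in the knockout arrays and 4.29 to 4.43 in the wild type arrays.

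Of 14 enterocyte markers measured, 3 were called higher and 4 lower, with a median difference of -0.16; the rises stayed at 3 under the 3 other scalings, while the falls numbered 1 after quantile normalization or cyclic loess, and 1 or 2 without any 1 of the knockout arrays. Krt20, a keratin, rose by 2.66 (SE 0.554), Lgals4, a galectin, by 1.50 (SE 0.171) and Mttp, which loads lipid onto lipoproteins, by 0.91 (SE 0.112). Fabp2, a fatty acid binding protein of enterocytes, lay between 2.30 and 2.61 in the knockout arrays and between 2.52 and 2.75 in the wild type arrays. Sis, the sucrase of the gut brush border, lay between 2.20 and 2.37 in the knockout arrays and between 2.52 and 2.57 in the wild type arrays. The mean of the enterocyte list was 4.21 to 4.45 in the knockout arrays and 4.02 to 4.13 in the wild type arrays. As for the hepatocyte list, the mean was higher on every knockout array than on every wild type array. A few large rises weigh on such means, Fetub (5.48) and Ahsg (4.38) for hepatocytes and Krt20 (2.66) for enterocytes. The median differences, -0.20 for hepatocytes and -0.16 for enterocytes, were negative. Both lists hold dim genes, such as Fga and Fgb, and Sis and Fabp2. The 2500 genes with a mean under 3 had a median of -0.16 as a whole, so the negative medians are not particular to these markers.

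**Figure D4:**
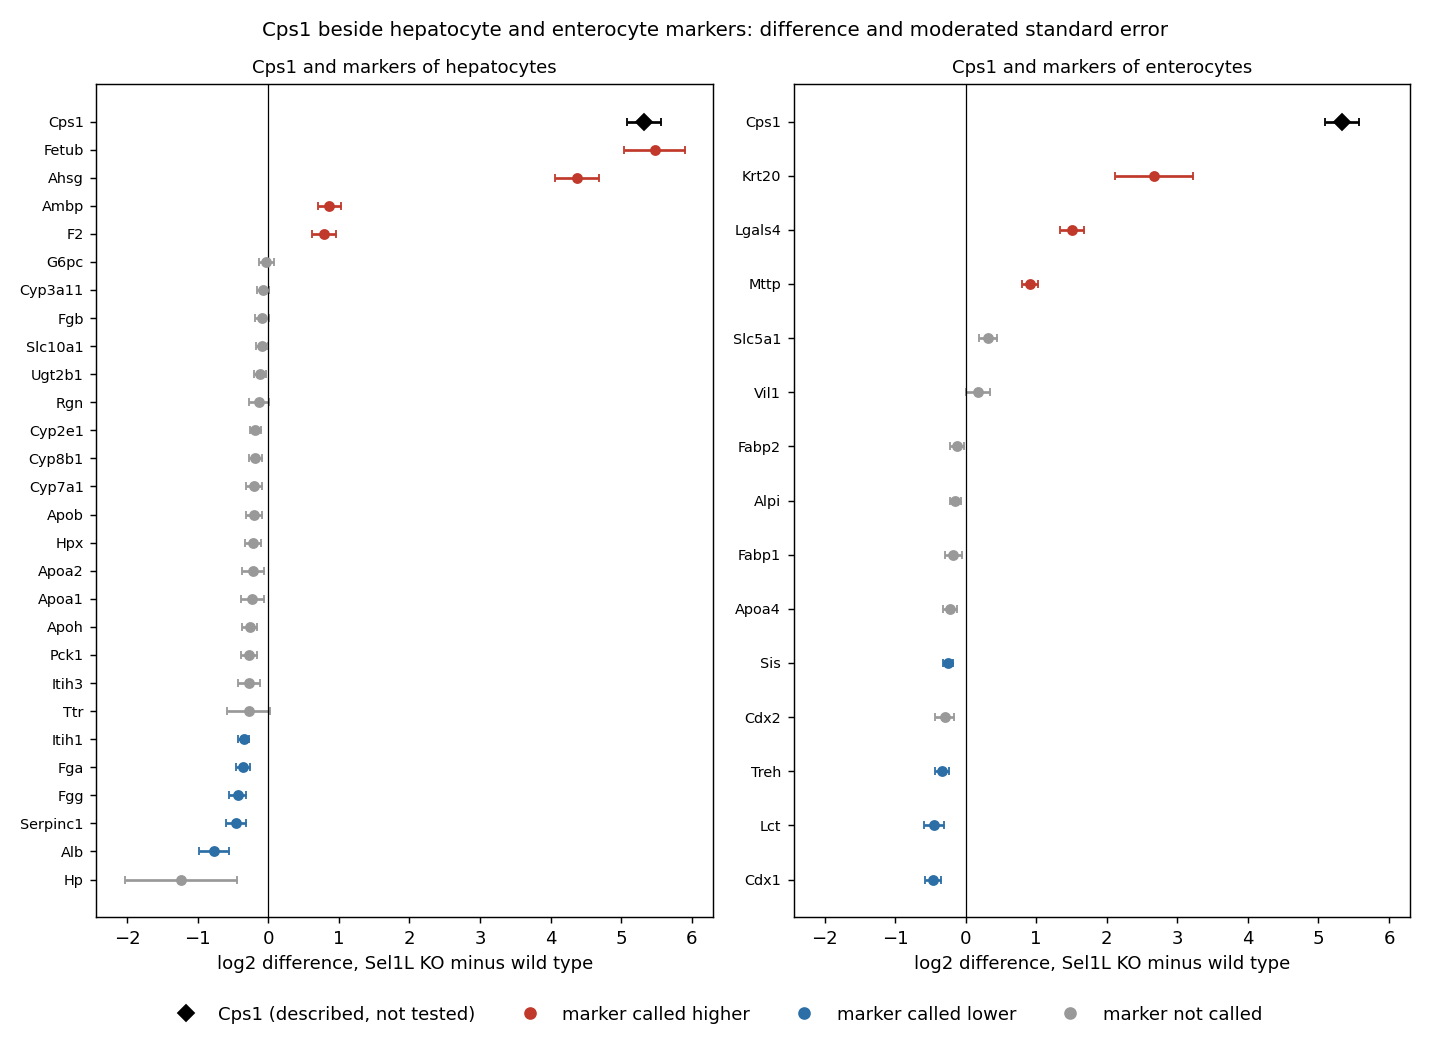
Log2 difference, Sel1L knockout minus wild type (horizontal axis), with its moderated standard error for Cps1 (black diamond, described and not tested) above 27 hepatocyte markers (left panel) and 14 enterocyte markers (right panel); red points were called higher, blue lower and grey not called. Fetub and Ahsg lie near Cps1, while most other markers of both lists lie at or below 0.

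For no other cell type was the list mean higher on every knockout array than on every wild type array. Acinar markers, the defining genes of the labelled tissue, were present in both groups: the mean of the 9 measured was 12.68 to 12.76 in the knockout arrays and 12.96 to 13.10 in the wild type arrays, and 6 were called lower and 0 higher by limma (7 lower and 0 higher at an unadjusted p under 0.05; 2 lower after quantile normalization). Islet cell means overlapped between the groups (7.22 to 8.55 in the knockout arrays and 7.21 to 8.45 in the wild type arrays), with Ppy higher and Pcsk1 lower among 10; the call of Ppy was lost under the 3 other scalings (0.0558 to 0.0804) and without any 1 of 5 of the arrays (0.0727 to 0.124). Of 9 duct markers 1 was called higher and 2 lower, of 7 kidney markers 1 was called higher, and of 10 stellate and fibroblast markers none was called by limma (1 lower and 0 higher at an unadjusted p under 0.05), while 2 were called lower without wild type replicate 2. The part of a change in cell make-up in the Cps1 difference was not tested beyond these values.

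The genes whose pattern over the 8 arrays was most like that of Cps1 were sought among the 9409 others with a level above the median gene. By Pearson r they were Trib3 (0.997), Tcta (0.995), Fermt1, Acy3 and Slc50a1 (0.994 each). Trib3, a pseudokinase whose gene is a target of ATF4, measured 9.19, 9.51, 9.54 and 9.73 in the knockout arrays, against 5.41, 6.17, 5.93 and 5.60 in the wild type arrays. The other genes differed less between the groups, by 1.26 for Tcta, 2.18 for Fermt1, 0.96 for Acy3, an aminoacylase, and 0.86 for Slc50a1, a sugar transporter. Likeness over these arrays reflects the split between 4 and 4 arrays, and the r values are a description of them.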

How the data were processed

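RNA of 8 mouse pancreas samples was hybridised to whole-transcript arrays. The deposited values were made with RMA, per the submitters' processing notes; neither its version nor which arrays entered it is given in the sources used here. These deposited values are taken as log2 from RMA and from their range, since no header names the base.

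GEO's platform annotation gave 1 symbol for 21218 of 35556 features, several for 1881 and no gene listed for 12457. Among those with 1 symbol, 21185 Entrez identifiers were found in the RefSeq table of GRCm38.p6 and 0 symbols changed. Per gene, the feature brightest on average was kept (2398 left out), with no filter on dim genes. Genotype was fitted over 18820 genes with limma 3.58.1 (lmFit, eBayes, 6 residual degrees of freedom) in R 4.3.3; calls used Benjamini-Hochberg adjustment at 0.05. Differences are knockout minus wild type and errors moderated standard errors. Correlations were tested by exact two-sided permutation over arrays. Promoter windows are RefSeq's. Figures were drawn with matplotlib 3.10.9.

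The members and lists were chosen with earlier results of these data known. Named genes were the 9 members, Sel1l, up to 5 called genes with the smallest p in each list, the 3 highest markers of each type (some given only within their list), all called hepatocyte and enterocyte markers, and the 5 genes most like Cps1. Cad, Sirt5, Cebpa, Hnf4a, Fgb, Cyp2e1, Fabp2, Ppy, Pcsk1 and other called markers outside this rule were chosen after their values were seen. Alternatives were quantile normalization, median centring, cyclic loess, genes above the median level alone, features taken singly, the mean of a gene's features, trend and robust variance, array weights, a replicate block, and removal of each array in turn. The fit was tested on simulated data. The number of arrays limits the precision.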

Additional observations from a re-analysis of the deposited data

Results flagged for a closer look

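In 5 of 120 groups of 4 arrays checked, 1 array lay far from the other 3 by the ratio of its gap to the group's range; chance alone flags about 1 in 20 such groups, or 6 of 120. The ratio was 0.862 for Sel1l in the knockout arrays, where replicate 4 measured 11.45 against 11.66 to 11.70. It was 0.879 for Slc25a13 in the wild type arrays, where replicate 2 measured 7.21 against 6.87 to 6.91. It was 0.845 for Fah in the knockout arrays, where replicate 1 measured 7.03 against 7.65 to 7.77. It was 0.929 for F2 in the knockout arrays, where replicate 2 measured 7.13 against 6.41 to 6.46. It was 0.947 for Lct in the wild type arrays, where replicate 1 measured 4.71 against 4.16 to 4.19. No group of a urea cycle member was among them.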

How the results depend on the processing

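The Cps1 difference lay between 5.13 and 5.55 under all 17 alternatives run. Calls over all genes numbered 3027 higher and 2379 lower on the deposited values. They were 1954 higher after quantile normalization, 1868 higher and 4014 lower after median centring, and 1163 lower among genes above the median level. Median centring moved the median of all genes from -0.04 to -0.14, so changes of about that size are read against it. Leaving out 1 array gave 2204 to 2856 higher, 1517 to 2371 lower (the lowest without knockout replicate 3) and 3721 to 5227 in all. Of the 6 tested members 1 was called, and 2 were after median centring; leaving out 1 array gave 1 to 2, Otc being the second in both cases. Of the 102 genes of the lists 16 were higher, against 9 after quantile normalization, 9 after median centring and 10 after cyclic loess, and 12 to 17 when an array was left out; 24 were lower, or 20 to 28, and 40 were called in all, or 32 to 43. The Arg1 difference, never called, ranged from -1.02 without wild type replicate 2 to 0.10 without wild type replicate 3, and was 0.07 without wild type replicate 1. Otc and Nags lie below the median level and have no value among the genes above it. Of 30 genes named by rule from the lists, 24 kept their call under every one of the 17 alternatives that gave them a value; 2 of the 24, Prodh2 and Foxa1, have none among genes above the median level. Among uncalled genes chosen after their values were seen, the sign turned for Sirt5 after quantile normalization (-0.023) and for Fgb and Fabp2 after quantile normalization (0.073 and 0.034) and cyclic loess (0.090 and 0.061). Same-numbered arrays did not deviate together (correlations of -0.273 to 0.222), and the labels do not pair them; with the replicate number as a block 4678 genes were called, 2680 higher and 1998 lower, 1 member, and 14 higher and 24 lower list genes; Nr0b2, Alb, Serpinc1 and Sis were then not called (adjusted p = 0.0591, 0.0604, 0.0512 and 0.0622). The cause of these shifts was not tested.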
